A study of Drosophila melanogaster with 5 samples.

Results

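On the left arm of Drosophila melanogaster chromosome 2, 5 neighbouring genes had much lower signal in salivary glands labelled as fork head (fkh)-expressing than in control glands. They are Plc21C, CG11912, CG11911, CG33127 and CG43755. Each is represented by 1 probe set, so the run comprises 5 of the 11982 genes with a probe set of 1 symbol on the array. Every probe set whose only annotated gene symbol is one of these names was taken, and none was left out. The genes were selected on their measured intensities: they are adjacent and fall together between the 2 groups of arrays. That difference is therefore given as a description without a test. The sequences of the genes and of their promoters were not analysed here.

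The study hybridised total RNA from dissected prepupal salivary glands to 5 single-colour Affymetrix arrays. For 3 arrays the labels give animals with P{hs-Fkh111}, a transgene that puts fkh, a forkhead-domain transcription factor of the gland, under heat-inducible control. For 2 they give w1118 animals, a white-eyed laboratory strain, which the titles write as w1118(3). Both groups were kept at 25 °C, received 30 min at 37 °C starting 9.5 h after puparium formation, and were dissected at 14 h, so the controls carry the heat shock too. A heat-shock transgene is not limited to the gland, and the labels do not say how many animals were pooled per array. The title of the series names Fork head-responsive genes as its subject, and the design has 1 comparison.

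Plc21C encodes a phospholipase C of the beta type, which acts downstream of G protein-coupled receptors. Enzymes of this class cleave the membrane lipid phosphatidylinositol bisphosphate into inositol trisphosphate, which releases calcium from stores, and diacylglycerol, which activates protein kinase C. CG11912, CG11911 and CG33127 carry names of the S1 (trypsin and chymotrypsin) family of serine proteases, a large family in flies with members in digestion, immunity and development. The RefSeq gene table lists the synonyms SP140 for CG11912 and SP103 for CG11911, where SP stands for serine protease. For CG33127 it lists SPH235, where SPH stands for serine protease homologue, a protein of this fold predicted to lack protease activity. CG43755 is protein coding, with no function given in that table.

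The genes are not merely side by side. In the RefSeq table of assembly Release 6 plus ISO1 MT, the span of Plc21C wholly contains those of 6 other genes, and 4 of these are the other genes of the run. In order they are lncRNA:CR43719, CG11912, CG11911, CG33127, CG43755 and CG31921. The long non-coding RNA has no probe set of its own name and was not analysed here. CG31921 had intensities of 11.9, 23.2 and 17.4 on the fkh-labelled arrays against 37.4 and 21.7 on the control arrays, and its mean was under the filter for dim probe sets. The nested gene without a strong fall was thus one with little signal in either group. Strand is not given in that table. A probe inside the span of Plc21C could detect unspliced RNA of Plc21C if it lies on the same strand, and the part of such RNA in these signals was not tested.

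The fkh probe set itself ran against the label. Its intensity was 41.5, 47.0 and 58.3 on the fkh-labelled arrays against 130 and 120 on the control arrays. The position of that probe set relative to the transgene is not known here, so it may not check the label, and all directions here are those of the labels. The arrays had similar medians, from 44.5 to 49.3. The actin ratio, of a 3' over a 5' probe set, which follows the quality of the RNA and of its labelling, was 3.37 to 4.94 in the fkh-labelled arrays and 2.47 to 2.54 in the controls, and its part in the results was not tested. Summed over 12 salivary gland markers the intensity was 43058 to 44372 against 12544 to 16056. Of the 12, 9 rose and 2, Sgs7 and fkh, fell at a limma adjusted p under 0.05, beside 21.5% and 19.3% of all genes. Both groups had signal from most of these markers, but ng1 was at 15.4 and 9.10 on the control arrays.

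**Figure D1:**
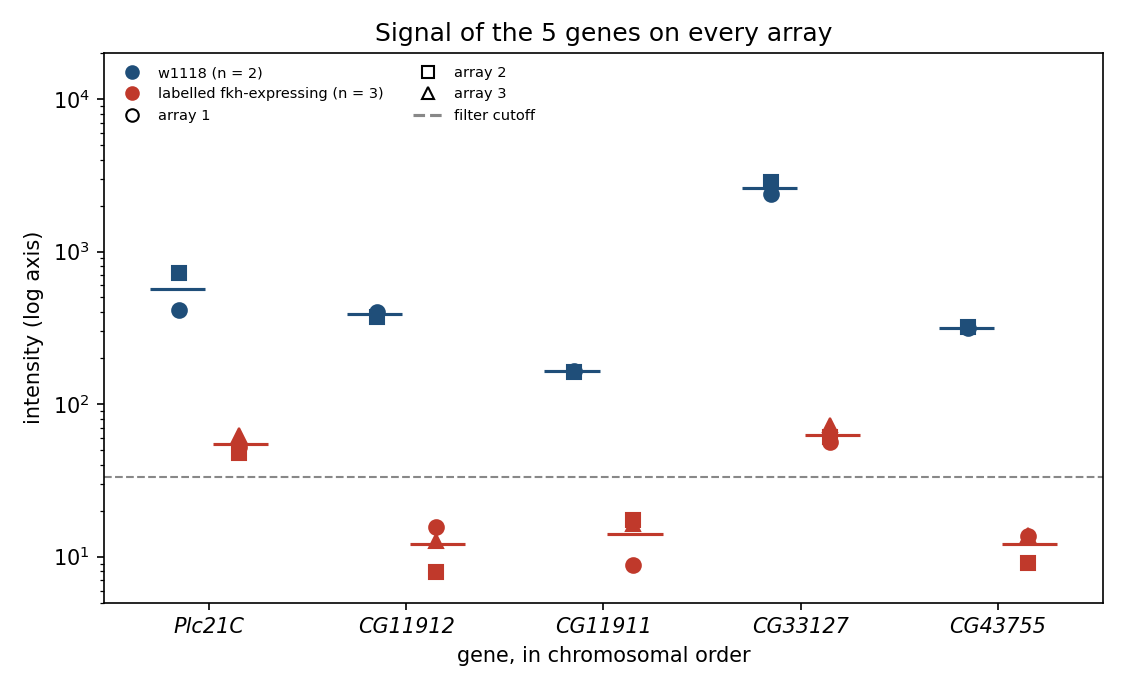
Intensity of each of the 5 genes (log axis) on every array, with blue points for the 2 w1118 arrays, red points for the 3 arrays labelled fkh-expressing, horizontal bars for group means and a dashed line at the dim probe set cutoff of 33.2. For all 5 genes every red point lies below every blue one, and for CG11912, CG11911 and CG43755 all red points lie below the cutoff.

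CG33127, the serine protease homologue, had the largest difference of the run. Its intensity was 56.3, 60.5 and 72.6 on the fkh-labelled arrays against 2372 and 2835 on the control arrays. All 3 fkh-labelled arrays lay far below both controls, with a lowest control 32.7 times the highest fkh-labelled array. The means were 63.1 ± 8.5 (SD, n = 3) and 2603 ± 328 (SD, n = 2), a 41.2-fold ratio of mean intensities. On the scale used for all fits, log2 of the intensity plus 16, the log2 fold was -5.05 (standard error 0.17). This was the 7th largest fall among 8298 genes. In these bulk samples, fewer cells with a transcript and less of it per cell cannot be told apart.

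The other nested protease genes were near the bottom of the range in the fkh-labelled glands. CG11912 had intensities of 15.7, 7.88 and 12.7 there against 399 and 375 on the control arrays. Its groups did not overlap, and its mean intensities differed 32.0-fold (12.1 ± 3.9, SD, n = 3, and 387 ± 17, SD, n = 2). The log2 fold was -3.85 (standard error 0.17). CG11911 had intensities of 8.79, 17.3 and 16.3 on the fkh-labelled arrays against 166 and 163 on the control arrays. The groups were again apart, with a lowest control 9.40 times the highest fkh-labelled array. Its means of 14.1 ± 4.6 (SD, n = 3) and 164 ± 2.0 (SD, n = 2) differed 11.6-fold. The log2 fold of -2.59 (standard error 0.18) was the smallest of the run.

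CG43755, the last of the run, had a profile closest to that of CG11912 among the genes of the run. Its intensity was 13.6, 9.04 and 13.8 on the fkh-labelled arrays against 316 and 318 on the control arrays. The controls were nearly identical and the fkh-labelled arrays all dim. The means of 12.2 ± 2.7 (SD, n = 3) and 317 ± 1.5 (SD, n = 2) differed 26.1-fold, with a log2 fold of -3.57 and a standard error of 0.16. The profiles of CG43755 and CG11912 over the 5 arrays, each centred on its mean, differed by a root mean square of 0.15 on the log2 scale, the smallest value of the 10 pairs of genes in the run. The most distant pair was CG11911 and CG33127, at 1.21. Genes with similar folds have similar profiles over these arrays. Both CG43755 and CG11912 were dim on every fkh-labelled array, so no further likeness is read from this distance.

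Plc21C, the gene that surrounds the others, had intensities of 52.5, 47.6 and 63.0 on the fkh-labelled arrays against 414 and 725 on the control arrays. All fkh-labelled arrays were below both controls, but the controls were far apart. Its means were 54.4 ± 7.9 (SD, n = 3) and 569 ± 220 (SD, n = 2), a 10.5-fold ratio. The log2 fold was -3.01 with the largest standard error of the run, 0.25. Without control array 1 the log2 fold was -3.40 and without control array 2 it was -2.62.

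All 5 genes were lower in the fkh-labelled arrays, and the groups overlapped for none. Across the array, 32.1% of the 11261 probe sets tested had all 3 fkh-labelled arrays below both controls, and 18.7% were called lower by limma at a Benjamini-Hochberg adjusted p under 0.05. All 5 are among those called, and nothing is read from that count, because the genes were chosen by this contrast. Their median log2 fold was -3.57, beside -0.0051 over all probe sets tested. Of all genes tested, 2.83% were called and at least 4-fold lower.

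The filter on dim probe sets bears on these numbers. It kept probe sets with a mean above 5.62 on the log2 scale, which is an intensity of 33.2. For 3 of the 5 genes, CG11912, CG11911 and CG43755, every fkh-labelled array lay under that intensity, so they passed only through the controls. Plc21C and CG33127 were above it on all 5 arrays. Near the bottom of the range the added constant compresses differences. With a constant of 1 in place of 16 the log2 folds of CG11912, CG11911 and CG43755 were -4.94, -3.50 and -4.62, and with 64 they were -2.57, -1.55 and -2.32.

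Within a group the signals of the run varied between arrays by different amounts. From control array 1 to control array 2 the intensity of Plc21C differed by a factor of 1.75, that of CG33127 by 1.20 and that of CG43755 by 1.01. Those of CG11911 and CG11912 differed by factors of 0.98 and 0.94. The difference of Plc21C between controls, 0.79 on the log2 scale, was exceeded by 4.99% of probe sets tested, whose median absolute difference was 0.20. The nested genes thus differed less between the controls than the outer gene. Among the fkh-labelled arrays, 3 of the 5 genes were highest on array 3, and 3 were lowest on array 2. CG11911 was lowest on array 1 and CG11912 highest there. Both, like CG43755, were under the filter's intensity on every fkh-labelled array, so nothing is read from their order.

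Shared signal between the related protease genes can be viewed only through the probe sets. The probe sets of the 3 protease genes and of CG43755 end in _at, which Affymetrix gave to sets meant for 1 transcript, as do 81.0% of the non-control probe sets. That of Plc21C ends in _s_at, as do 10.5%, a suffix for probes that match several transcripts, which may belong to different genes. RefSeq lists several transcripts of Plc21C, but whether its probes match those alone was not analysed. Between the controls the probe set of CG33127 was 1.20 times as bright on array 2, while those of CG11911 and CG11912 were slightly dimmer there. Probe sequences were not analysed here, and cross-hybridisation between the family members was not tested.

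**Figure D2:**
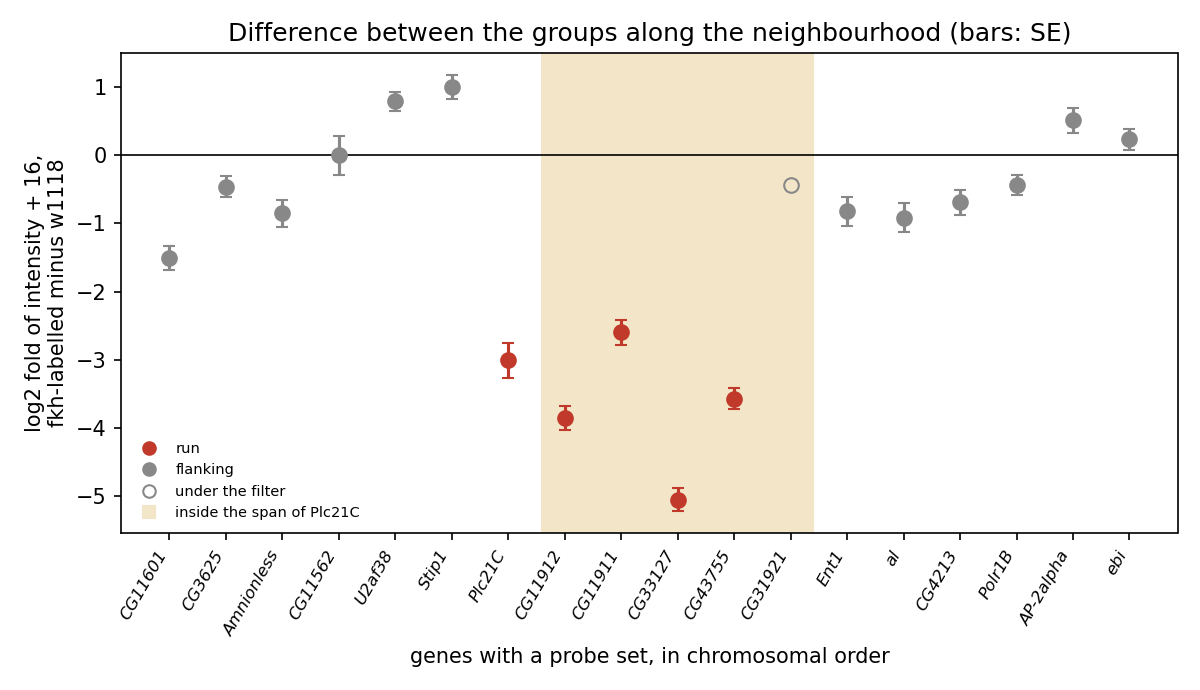
Log2 fold (fkh-labelled minus w1118, with standard error) of each gene with a probe set, in chromosomal order, with the run in red, flanking genes in grey, an open point for CG31921 under the filter, and shading over the genes inside the span of Plc21C. The 5 genes of the run lie between -2.59 and -5.05, and the 12 flanking genes tested between -1.51 and 0.998.

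The size of the difference dropped at both ends of the run. The run was chosen as adjacent genes that fall together, so a smaller difference just outside it follows from that choice. On the side of Plc21C, the nearest neighbour, Pi3K21B, the regulatory subunit of class I phosphoinositide 3-kinase, has no probe set of 1 symbol and was not analysed here. The next, Stip1, a co-chaperone of Hsp70 and Hsp90, rose. Its intensity was 4280, 4406 and 5538 on the fkh-labelled arrays against 2190 and 2520 on the control arrays (log2 fold 0.998, standard error 0.18, limma adjusted p = 0.0053). The splicing factor U2af38 also rose, with a log2 fold of 0.79 (limma adjusted p = 0.0053). CG11562 had a log2 fold of -0.0043 (limma adjusted p = 0.99). The direction of the difference thus turned within the first tested gene on this side.

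On the other side the neighbours were lower as well, by smaller amounts. Ent1, an equilibrative nucleoside transporter, had intensities of 2127, 2012 and 1437 on the fkh-labelled arrays against 3507 and 3026 on the control arrays. All 3 lay below both controls, and the log2 fold was -0.82 (standard error 0.21, limma adjusted p = 0.022). The homeobox gene al fell by 0.92 (limma adjusted p = 0.015) and CG4213 by 0.69 (limma adjusted p = 0.025), both at low intensity. Polr1B, a subunit of RNA polymerase I, had a log2 fold of -0.44 (limma adjusted p = 0.059), AP-2alpha, an adaptor of clathrin coats, 0.51 (0.063) and ebi, a corepressor component, 0.23 (0.28).

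Over the 6 tested genes on each side, 2 of 12 rose and 6 fell, beside 21.5% and 19.3% of all genes, and their median log2 fold was -0.45. The falls include CG11601, Amnionless and CG3625 on the first side, with log2 folds of -1.51, -0.85 and -0.46. The 6 falls kept their sign when either control was left out, which leaves 1 control. Without control array 1 and then 2, Ent1 had log2 folds of -0.72 and -0.93 and al of -0.86 and -0.97. Those of Amnionless were -0.91 and -0.79 and those of CG3625 -0.39 and -0.53. Those of CG4213 were -0.49 and -0.89, and those of CG11601 -1.38 and -1.64. The call of CG3625 was lost when each fkh-labelled array in turn was left out (limma adjusted p = 0.11, 0.10 and 0.059). That of CG4213 was lost without fkh-labelled arrays 1 and 2 (0.071 and 0.079). CG11601 had the smallest adjusted p of the 12 (limma adjusted p = 0.00081).

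The run can be set beside all other runs of neighbours, as a description only, because it was chosen as adjacent genes that fall together. Of 8266 tested genes placed in chromosomal order, 2.81% were called and at least 4-fold lower. The 5 genes here made the only stretch of 4 or more consecutive tested genes that all met this criterion, and 3 of them entered the tested set only through the controls. No stretch of 4 or more was found among the 4.89% of genes at least 4-fold higher. With any called fall, of whatever size, 25 stretches of 4 or more were found, 5 of them with 5 or more genes. The longest then had 8 genes and was the run here together with Ent1, al and CG4213. Without either control array, CG11911 fell under the filter and the 4-fold run held 4 genes. With a constant of 64 CG11911 had a log2 fold of -1.55, short of 4-fold, which split the run. The stretch that holds CG33127 was then CG33127 and CG43755. Plc21C and CG11912, on the other side of CG11911, had log2 folds of -2.38 and -2.57.

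**Figure D3:**
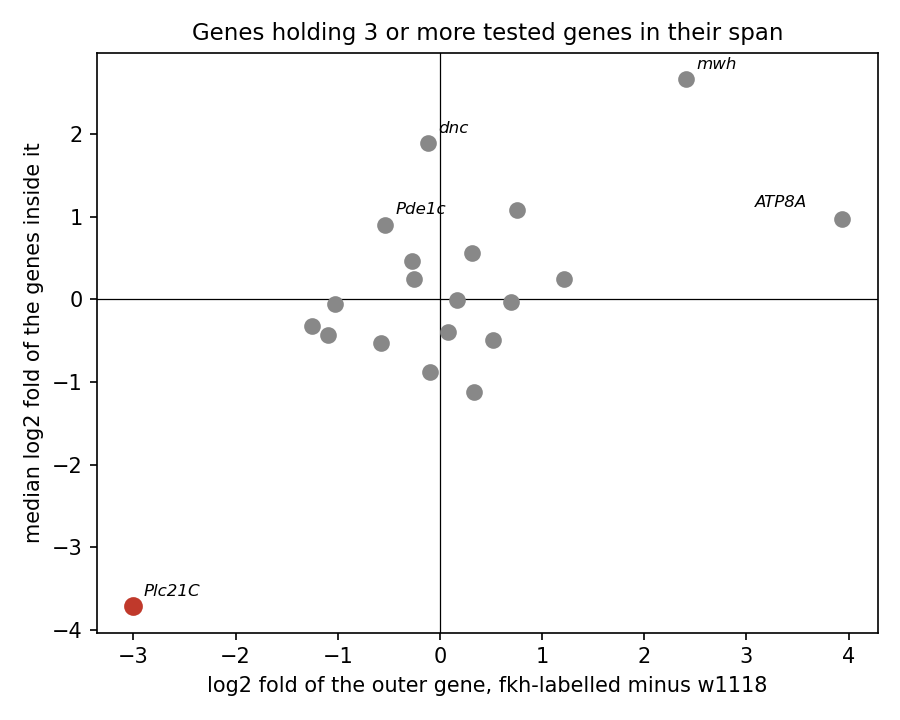
Each point is a gene whose span wholly contains at least 3 other tested genes (20 in all), plotted by its own log2 fold (horizontal axis) and the median log2 fold of the genes inside it (vertical axis), fkh-labelled minus w1118. Plc21C, in red, lies at -3.01 and -3.71, and the medians of the genes inside the other 19 lie between -1.12 and 2.66.

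Other nested genes could be compared with the gene around them. In the RefSeq table, 20 tested genes contain 3 or more other tested genes in their span. Plc21C was the only one for which the outer gene and every nested tested gene were called lower. The genes were chosen because they are adjacent and fall together, so this follows from the choice and supports nothing, and CG11912, CG11911 and CG43755 were tested only through their control arrays. Pde1c, a cyclic nucleotide phosphodiesterase, had a log2 fold of -0.54, whereas 4 of the 6 tested genes inside it rose. The cyclic AMP phosphodiesterase gene dnc had -0.12, and 5 of the 7 inside it rose, a group that includes the glue genes ng1, ng2, ng3, ng4, Pig1 and Sgs4. Egfr had -1.10, and of the 3 protease-type genes inside it 0 were called by limma, with 2 lower at an unadjusted p under 0.05. Some outer genes were higher together with genes inside them. ATP8A had 3.94, with 2 of 3 inside it called higher, and mwh had 2.41, with 2 of 4. Of all genes, 21.5% were called higher and 19.3% lower. These outer genes were named after their values were seen.

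**Figure D4:**
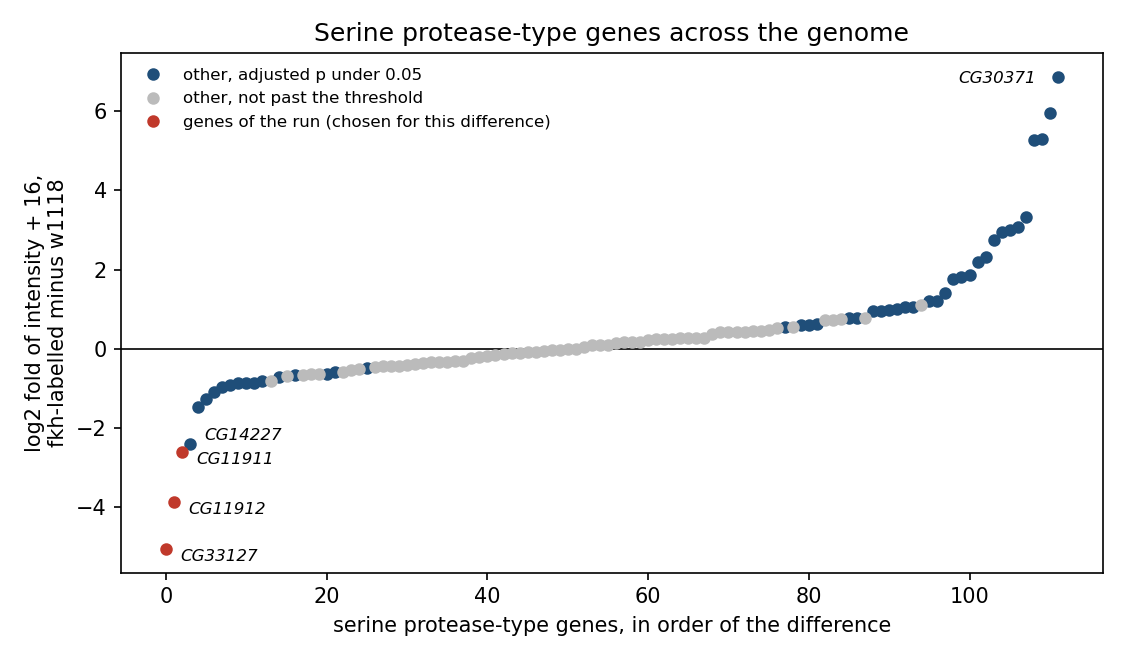
Log2 fold (fkh-labelled minus w1118) of 109 other serine protease-type genes and of the 3 in the run, ordered by value, in blue where the adjusted p was under 0.05, grey where it was not, and red for the run. CG33127 and CG11912 lie lowest, followed by CG11911 and CG14227 at -2.59 and -2.40, whose order turns without fkh-labelled array 1, and CG30371 is highest at 6.87.

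Other genes of the protease family were called in both directions. Genes of the family were found through RefSeq synonyms of the form SP or SPH with a number. Of 252 others, 227 had a probe set and 109 were tested. Of these, 29 rose and 15 fell, which is 26.6% and 13.8%, beside 21.5% and 19.3% of all genes. The number that fell was 8 and 9 without fkh-labelled arrays 1 and 2, and 19 without fkh-labelled array 3. Their median log2 fold was 0.16, beside -0.010 over all genes. The protease genes of the run, chosen for their fall, are left out of the 109 but counted among all genes, which lowers the share that fell. CG14227 fell at least 4-fold, with intensities of 31.8, 16.2 and 1.74 on the fkh-labelled arrays against 160 and 127 on the control arrays (limma adjusted p = 0.0037). It was under the filter with a constant of 1 and without either control array. Its log2 fold of -2.40 lay next to the -2.59 of CG11911, but without fkh-labelled array 1 the order turned (-2.73 and -2.46). Both genes had every fkh-labelled array under the filter's intensity.

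Most of the family's 4-fold changes were rises. CG30371 had intensities of 2748, 3005 and 4080 on the fkh-labelled arrays against 10.5 and 13.1 on the control arrays, a log2 fold of 6.87 (limma adjusted p = 6.1e-06). CG34290, CG11192 and CG6865 rose by 5.95, 5.27 and 5.30. In all, 11 of the 109 rose at least 4-fold and 1, CG14227, fell at least 4-fold, beside 4.89% and 2.83% of all genes. The 109 leave out the protease genes of the run, each chosen for its fall and at least 4-fold lower, which all genes include. Whether the family differs from other genes was not tested. Among genes tagged SPH, the class of CG33127, 4 of 24 rose and 4 fell, or 16.7% each way, near the 21.5% and 19.3% of all genes. Of these 24, 0 changed by at least 4-fold in the limma fit, also at an unadjusted p under 0.05, beside 4.89% and 2.83% of all genes that rose and fell by that much. CG33127 itself, chosen for its fall, is left out of the 24. A difference between the classes was not tested.

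Protease genes also lie side by side elsewhere. There were 13 other groups of at least 3 adjacent family genes with at least 2 tested, and in 0 of them was every tested gene called lower by limma. At an unadjusted p under 0.05 there was 1 such group. Only 3 of the 13 had 3 or more tested genes. Of all genes, 19.3% were called lower and 21.5% higher. The run was chosen for its fall, so a contrast with these groups follows from that choice and supports nothing. In the trypsin group that holds alphaTry and betaTry, 3 of 12 genes were tested and 0 called by limma, and 0 had an unadjusted p under 0.05. Of 32 named proteases listed as midgut proteases, whose sites of expression were not checked, 12 were tested, and only iotaTry was called. It had means of 27.6 and 52.6 and a log2 fold of -0.67 (limma adjusted p = 0.034). This call was lost without either of the first 2 fkh-labelled arrays (0.080 and 0.089), with a constant of 64 (0.059), with an intensity trend (0.051) and with no filter (0.059). Without the second control the log2 fold of iotaTry was -0.72. Without the first control iotaTry was under the filter.

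The pathway of Plc21C moved in both directions. Of 29 other tested genes of phosphoinositide signalling, 10 rose and 4 fell, or 34.5% and 13.8%, beside 21.5% and 19.3% of all genes. Their median log2 fold was 0.36, beside -0.010 over all genes. Plc21C, chosen for its fall, is left out of the 29 but counted among all genes. The kinase that makes the substrate of phospholipase C at the plasma membrane, sktl, had intensities of 570, 579 and 558 on the fkh-labelled arrays against 3278 and 3792 on the control arrays. Its groups were well apart, and the log2 fold of -2.60 had a standard error of 0.15 (limma adjusted p = 4.1e-05). PIP5K59B, which makes the same lipid, fell by 0.75 (limma adjusted p = 0.034), a call lost without fkh-labelled array 1 (0.076), fkh-labelled array 3 (0.061) or control array 1 (0.20). With replicate number as a block it was lost too (0.082).

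Both Cds and Pis, enzymes that rebuild the lipid precursor, rose. Cds, the CDP-diacylglycerol synthase, had intensities of 1734, 1992 and 1789 on the fkh-labelled arrays against 294 and 299 on the control arrays (log2 fold 2.57, limma adjusted p = 4.2e-05). Pis, the phosphatidylinositol synthase, rose by 1.26 (limma adjusted p = 0.0010). Mipp1, an inositol polyphosphate phosphatase, rose by 5.16 and the lipid phosphatase wun by 2.39. Stim, the calcium sensor of the endoplasmic reticulum, rose by 1.13 (limma adjusted p = 0.0013).

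Several components that act next to phospholipase C did not pass the threshold. The G protein subunit Galphaq had means of 321 and 223 and a log2 fold of 0.50 (limma adjusted p = 0.055). The inositol trisphosphate receptor Itpr had a log2 fold of 0.097 (limma adjusted p = 0.76). The gamma-type phospholipase C gene sl, a relative of Plc21C, had means of 425 and 407 and a log2 fold of 0.033 (limma adjusted p = 0.92). The inositol trisphosphate kinase IP3K1 rose by 3.58, while IP3K2 fell by 1.31 at its brightest probe set of that name (limma adjusted p = 0.0063).

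The genes outside the run whose profile over the 5 arrays lay closest to the mean profile of the run were CG15745, CG42331, CG5506, Pgant4, Wdr62 and dgt6. Their centred log2 profiles differed from it by a root mean square of 0.078 to 0.18, and those of the run's own genes by 0.088 to 0.70. Any gene with a similar fall has a similar profile over these arrays. CG15745, the closest, had intensities of 167, 144 and 197 on the fkh-labelled arrays against 2224 and 2467 on the control arrays. RefSeq lists CG15745 as an older name of IP3K2, but the other 2 probe sets of IP3K2 had log2 folds of -1.31 and 0.087, so the probe sets of this gene disagree. Pgant4, which encodes an O-glycosyltransferase, had means of 64.1 and 906, and dgt6, which encodes an augmin subunit, 44.5 and 594. The closest 6 lie on several chromosome arms, and none is inside the span of Plc21C.

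Markers of other cell types were measured, because proteases of this family are abundant in the gut. Of 10 midgut markers 6 had a probe set and 4 were tested, of which LManI rose and GATAe fell. The call of LManI was lost without fkh-labelled array 1 (limma adjusted p = 0.053). Its log2 fold was 0.88 and 0.62 without control arrays 1 and 2, beside 0.75. The summed intensity of the 6 was 1145 to 1481 on the fkh-labelled arrays against 787 and 1520 on the control arrays. Most of it was mex1, at 962 to 1290 against 584 and 1325, whose groups overlapped. GATAe, a transcription factor of the endoderm, had intensities of 26.7, 15.2 and 14.2 against 70.3 and 78.8. Every fkh-labelled array was under the filter's intensity for GATAe, so it was tested only through the controls. Vha100-4, a proton pump subunit, at means of 29.6 and 47.9 (limma adjusted p = 0.083), and Mal-A1, a maltase under the filter, at 14.0 and 27.5, also had all fkh-labelled arrays below both controls. Mal-A8, another maltase under the filter, had all of them above, at means of 42.5 and 14.8. The summed intensity of 7 fat body markers was 11991 to 13247 against 21850 and 23225, and 3 of 7 tested fell, the most Obp44a, beside 19.3% of all genes. That of 8 haemocyte markers was 1444 to 2014 against 3512 and 3593, and 4 of 6 tested fell, the most NimC4. That of 4 tracheal markers was 1226 to 1505 against 2434 and 3016, and 3 of 4 tested fell, the most verm. That of 4 muscle markers was 352 to 412 against 375 and 377. None of these markers was listed at 0 on any array, and eater, Mlc2 and up were under the filter's intensity on every array. The part of such cells in the signal of the run was not tested.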

How the data were processed

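The deposited intensity values are linear, 1 per probe set. The authors made them in dChip and, per the series' design text, normalized every array to the same baseline with a median intensity of 134. No source used here gives the dChip version, its expression model or how background was handled. Left out were 183 control probe sets. Among the remaining 18769, 13647 have 1 gene symbol in the platform annotation. Fits used log2(intensity + 16), which understates the folds of dim probe sets, for the 11261 probe sets with a mean above the 40th percentile. limma 3.58.1 (R 4.3.3) fitted the group difference to all of them (lmFit, then eBayes; two-sided; 3 residual degrees of freedom), Benjamini-Hochberg adjusted at a threshold of 0.05. The procedure was tested on simulated data. The submitters call the arrays of a group biological replicates, and their number limits the precision. The probe set with the highest mean stood for its gene.

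The members and lists were chosen with earlier results of these data known. Gene order and nesting came from the RefSeq table of Release 6 plus ISO1 MT, and no coordinates are given because the array's build is not known. A planned list of proteases by protein motifs, the nearest proteins by sequence and a promoter motif search were not run. The protease list was built from RefSeq synonyms instead (SP or SPH, numbers up to 260), a choice made after seeing the data. Named genes were the run, 6 tested neighbours a side, the 6 closest profiles, the 4 smallest p of each list and the strongest falls among markers. Others, such as CG14227, the outer genes, Pis, Stim, Galphaq, Itpr, sl, IP3K1, IP3K2 and PIP5K59B, were named after their values were seen. Python 3.11.15 and matplotlib 3.10.9 drew the figures.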

Additional observations from a re-analysis of the deposited data

How the results depend on the processing

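The alternatives were another constant, no filter, quantile normalization, an intensity trend in the variance, a replicate block, a second probe set per gene and each array left out. In every one that gave a value, all 5 genes of the run kept a negative log2 fold. CG33127 ranged from -5.35 to -4.39, CG11912 from -4.94 to -2.57, CG11911 from -3.50 to -1.55, CG43755 from -4.62 to -2.32 and Plc21C from -3.40 to -2.38. CG11911 was under the filter without either control array. The median of the run was -4.62 with a constant of 1, -2.38 with 64 and -3.66 after quantile normalization. With a fkh-labelled array left out it was -3.61 to -3.49. Without control array 1 and then 2 it was -3.69 and -3.73, but those medians do not include CG11911. The number of probe sets that fell was 1222 to 2309 with an array left out, beside 2104, and the number of protease-type genes that fell was 6 to 19, beside 15. The flanking genes that fell numbered 1 to 5, beside 6. With the replicate number as a block, fkh-labelled array 3 had no control of its number. The log2 folds then equal those without that array. The run's median was -3.61, and 2019 probe sets fell and 2350 rose. Same-numbered arrays correlated at 0.077 and -0.11 in their deviations from the group means. With 2 controls, the correlation with one control is that with the other with its sign turned. These values therefore cannot show whether the numbers pair the arrays. At the second probe set of IP3K2 the log2 fold was 0.087 in place of -1.31. The run of 4-fold falls was recomputed as an alternative chosen after seeing the data. The dim signals of CG11912, CG11911 and CG43755 in the fkh-labelled arrays limit how exactly their folds are known.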
